A study of Mus musculus with 4 samples.

Results

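The Krüppel-like factor genes described here are the 10 mouse genes Klf2, Klf3, Klf4, Klf5, Klf6, Klf7, Klf9, Klf10, Klf13 and Klf15, out of 21440 protein-coding genes whose strand was known. They were listed by name, with earlier results of these data known, so the share of them with a region is a description of these genes only. Each was searched for open chromatin at its 5′ end, within the gene and in the surrounding sequence nearer to its 5′ end than to that of any other protein-coding gene. Open chromatin was measured by bulk ATAC-seq, an assay in which the Tn5 transposase inserts adapters where DNA is accessible. The cells were non-irradiated organoids of the submandibular salivary gland (mSGOs) of C57BL/6 mice, grown in Matrigel in a medium called WRY, which held EGF, FGF2, insulin, dexamethasone, Y27632, R-spondin1 and Wnt3a. The 4 samples were 2 of passage 1 and 2 of passage 2, and each passage had 1 sample from a mouse of 12 weeks and 1 from a mouse of 3 months. These labels give nearly the same age in different units. All samples shared the medium and none was irradiated. The organoids can hold several cell types, which bulk ATAC-seq does not separate.

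The result was 1 peak list, taken to be the consensus of the 4 samples, that gave no value per sample. No test, replicate spread or comparison of passages or mice was therefore possible, and the depth is unknown. It held 32011 distinct regions. The fold of a region is the ratio of its signal at the strongest summit to the local background, as the peak caller gave it, and its median over all regions was 7.11 (quartiles 5.70 and 9.32). In a bulk sample, a region open in fewer cells and a region less open in each cell cannot be told apart. The list was checked against cell type markers: 7 of 10 epithelial markers had a region at the 5′ end (Epcam, Cdh1, Krt5, Krt14, Krt8, Sox9 and Cldn4, but not Krt18, Krt19 or Trp63), against 1 of 6 immune markers (Cd68), 0 of 6 endothelial markers and 0 of 6 fibroblast markers. Of all protein-coding genes, 38.3% had one.

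Krüppel-like factors are transcription factors with zinc fingers at the carboxy terminus that bind GC-rich sequences such as the CACCC box and the GC box. Their amino termini differ and recruit different partners. Klf3 binds the corepressor CtBP. Klf2, Klf4, Klf5, Klf6 and Klf7 carry activation domains, while Klf9, Klf10 and Klf13 bind the corepressor Sin3A. In epithelia, Klf4 is best known for differentiation and barrier formation and Klf5 for proliferation of basal cells. Klf9 and Klf15 are well-known glucocorticoid-induced genes, and dexamethasone, a synthetic glucocorticoid, was in the medium of every sample.

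A region with its midpoint within 1 kb of the 5′ end was found for 9 of the 10 genes, where 38.3% of all protein-coding genes had one. Klf15 had none. Counted by annotated promoter start and not by outermost 5′ end, 30.9% of all 32851 promoters had a region within 1 kb. The share was higher among CpG-rich promoters. Of the 10362 promoters with at least 13 CpG dinucleotides in the 250 bases before the start, 65.5% had a region within 1 kb of it. The number 13 was the lowest among the 8 Klf promoters with a sequence, which leaves out Klf5 and Klf10. The 5′ end is the outermost one of the gene in a RefSeq gene table of GRCm38.p6, so alternative starts inside a gene count as part of the gene. Klf7 had 2 such regions and the other 8 genes had 1 each. The fold of the strongest 5′ region ranged from 5.42 for Klf4 to 12.87 for Klf13, with a median of 7.83 over the 9 genes, against 8.41 over the 8206 protein-coding genes with a 5′ region (quartiles 6.46 and 11.06). Klf5, Klf6 and Klf13 were above that median and the other 6 were below it. The regions were broad: their median width was 706 bp against 480 bp, and 8 of the 9 exceeded 480 bp. The 480 bp is the median over all protein-coding 5′ regions and was not matched for CpG content. The strongest summit lay upstream of the 5′ end in 8 of the 9 genes (88.9%), against 57.3% of protein-coding genes with a 5′ region, with Klf7 as the exception. The highest reproducibility score in the list, an IDR score of 1000, was given to 8 of the 9 regions, against 62.7%, and Klf4 was the one below it.

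**Figure D1:**
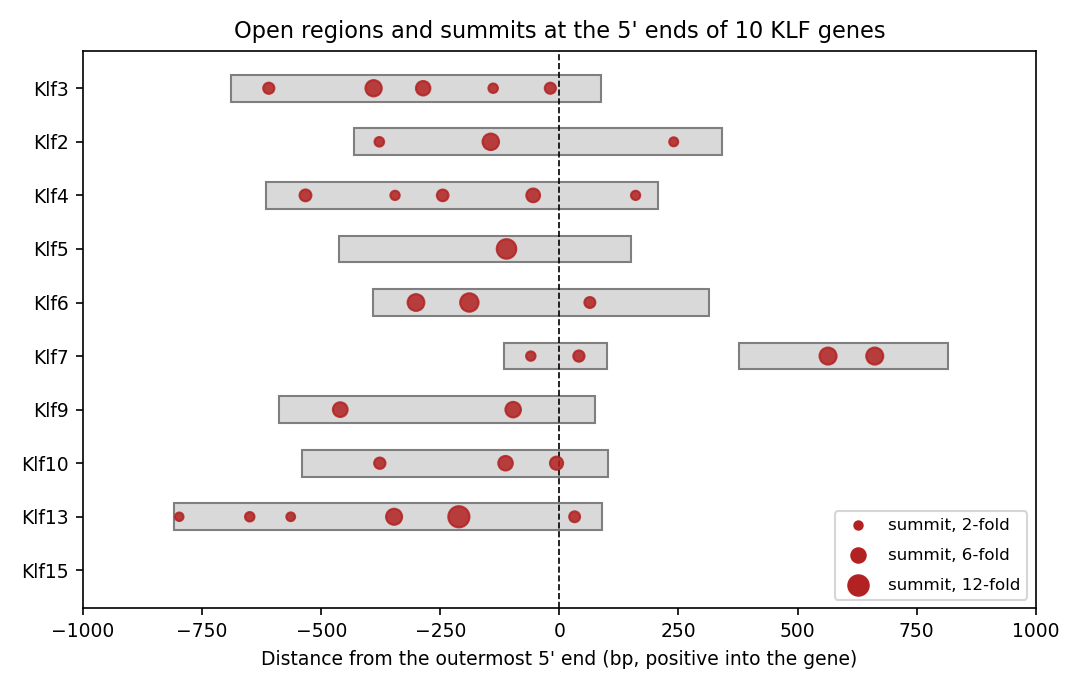
Regions at the 5′ ends of the Krüppel-like factor genes, by distance in bp from the outermost 5′ end (x axis, upstream negative, along the strand of each gene). Grey bars are regions and red points are summits, larger for a higher fold. In 8 of the 9 genes with a region the strongest summit is upstream of the 5′ end, Klf7 being the exception, the region of Klf13 is the widest at 898 bp, and Klf15 has no region.

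The promoter sequences of 5 genes are printed here because the strongest summit of their 5′ region lay inside the 250 bases before the start, and that of Klf15 because its promoter had no region. The sequences are from RefSeq (GRCm38.p6), 5′ to 3′ along the strand of the gene, and end at the base before the annotated start. Capitals mark CACCC (the CACCC box), GGGCGG (the GC box) and CCAAT (the CCAAT box), on either strand, and neighbouring matches can overlap. In order, the windows are chr13:5861239-5861488 (plus strand), chr7:63938916-63939165 (minus strand), chr8:72318812-72319061 (plus strand), chr4:55532476-55532725 (minus strand), chr19:23140976-23141225 (plus strand) and chr6:90462326-90462575 (plus strand).
Klf6: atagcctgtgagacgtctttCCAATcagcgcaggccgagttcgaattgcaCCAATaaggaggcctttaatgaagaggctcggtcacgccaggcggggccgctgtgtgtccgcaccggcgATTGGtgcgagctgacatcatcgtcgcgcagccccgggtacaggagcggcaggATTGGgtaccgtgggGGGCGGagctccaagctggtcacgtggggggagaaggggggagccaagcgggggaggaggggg
Klf13: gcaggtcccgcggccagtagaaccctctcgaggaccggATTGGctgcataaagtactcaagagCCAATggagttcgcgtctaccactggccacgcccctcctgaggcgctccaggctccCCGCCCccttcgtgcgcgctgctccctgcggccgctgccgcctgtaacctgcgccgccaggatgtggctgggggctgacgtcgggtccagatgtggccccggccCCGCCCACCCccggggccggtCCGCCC
Klf2: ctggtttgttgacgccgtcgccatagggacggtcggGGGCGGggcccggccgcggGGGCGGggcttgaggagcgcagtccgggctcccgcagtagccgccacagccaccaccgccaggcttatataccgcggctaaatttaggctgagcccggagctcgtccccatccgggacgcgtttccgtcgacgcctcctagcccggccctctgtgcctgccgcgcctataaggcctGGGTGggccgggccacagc
Klf4: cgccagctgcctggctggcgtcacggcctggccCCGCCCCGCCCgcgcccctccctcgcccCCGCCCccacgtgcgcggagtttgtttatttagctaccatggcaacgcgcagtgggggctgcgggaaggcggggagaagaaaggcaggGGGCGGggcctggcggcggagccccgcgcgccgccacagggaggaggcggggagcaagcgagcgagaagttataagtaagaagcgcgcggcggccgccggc
Klf9: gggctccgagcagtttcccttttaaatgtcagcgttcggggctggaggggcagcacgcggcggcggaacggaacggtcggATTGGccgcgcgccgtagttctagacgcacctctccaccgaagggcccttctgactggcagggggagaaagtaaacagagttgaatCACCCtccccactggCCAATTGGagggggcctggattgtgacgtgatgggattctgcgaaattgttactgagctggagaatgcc
Klf15: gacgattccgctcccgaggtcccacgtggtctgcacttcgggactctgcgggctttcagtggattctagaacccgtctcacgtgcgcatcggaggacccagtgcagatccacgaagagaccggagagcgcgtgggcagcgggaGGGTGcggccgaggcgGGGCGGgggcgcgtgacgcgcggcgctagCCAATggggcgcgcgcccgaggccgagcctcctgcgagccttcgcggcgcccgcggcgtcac

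Of the 10 genes, 8 were in the promoter table, all but Klf5 and Klf10. Their windows were GC-rich, with a median GC content of 71.4% against 52.4% over all 32851 windows of the table, and a median of 23.5 CpG dinucleotides against 6. GGGCGG was present in 7 of the 8 windows, all but that of Klf9, against 32.7% of all windows. CACCC was present in 6 of the 8, all but those of Klf4 and Klf6, against 52% of all windows. CCAAT was present in 4 of the 8, namely Klf6, Klf9, Klf13 and Klf15, against 33.8%. The window of Klf6 held 4 CCAAT boxes and that of Klf9 held 3, while that of Klf3 held most GC boxes, 6, and most CACCC boxes, 5. The open summit of Klf13, 211 bases before the start, fell within a CCAAT box on the reverse strand whose first base is 212 bases before the start. The shares over all windows were not matched for GC content, so they do not separate the motifs from the GC-rich composition of the Klf windows. These matches describe letters in the window and not binding.

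Other motifs searched on both strands were rarer. TGANTCA, the AP-1 motif, was present in the window of Klf9 alone, with its first base 89 bases before the start, where it overlaps the CACCC box that begins at 84 bases. The share over all windows was 6.75%. The MEF2 motif was present in the window of Klf2 alone, 118 bases before the start, against 3.2% of all windows. GGAATG, the TEAD motif, the palindromic glucocorticoid receptor element and TATAAA, the core of the TATA box, were in none of the 8 windows, against 12.6%, 0.387% and 12.4% of all windows. The window of Klf15 had 72% GC and 37 CpG, the most CpG of the 8. Of the 724 windows in the table with at least as many CpG, 53.7% had a region within 1 kb of the start, and 335 had none.

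Klf3, the CtBP-binding repressor, had a 5′ region at chr5:64802833-64803608 with a fold of 7.64 and a −log10 q-value of 37.0. It was 776 bp wide and held 5 summits between 610 and 19 bp upstream, the strongest at 390 bp. It also lay within the span of Gm38457, a protein-coding gene model that overlaps the locus.

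Among the activators, Klf2, which is known for quiescence of endothelial cells and T cells, had a region at chr8:72318631-72319404 with a fold of 7.83 and a −log10 q-value of 36.2. Its strongest summit was 144 bp upstream, beside weaker ones 378 bp upstream (2.63) and 240 bp downstream (2.32). Klf4 had the weakest 5′ region of the 9, at chr4:55532268-55533091, with a fold of 5.42, a −log10 q-value of 20.4 and an IDR score of 853. Only 10.7% of the 8206 protein-coding 5′ regions had a lower fold, but 93.4% were narrower than its 824 bp. The signal of Klf4 was thus spread over 5 summits from 533 bp upstream to 160 bp downstream, the strongest 55 bp upstream, and the 5′ end of the noncoding gene Gm12506 lay within 1 kb of the region.

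Klf5 had the opposite shape. Its region at chr14:99298229-99298841 had a fold of 10.99, a −log10 q-value of 90.9 and 1 summit only, 111 bp upstream, and was the single 5′ region among the 9 without further summits. Klf6, an early-response gene, had a region at chr13:5861098-5861803 with a fold of 9.75 and a −log10 q-value of 80.4. Its strongest summit, 189 bp upstream, stood beside another of nearly the same height 301 bp upstream (8.09) and a lower one 64 bp downstream (3.45).

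Klf7, known for its part in neuronal development, was the exception in position. Its stronger region, chr1:64121530-64121968, had a fold of 8.34 and summits of equal height 564 and 662 bp inside the gene, and a weaker one at chr1:64122245-64122462, with a fold of 3.65, covered the outermost 5′ end. The start given for Klf7 in the promoter table lies 956 bp inside the outermost 5′ end, and both summits lay upstream of it, the farther by 392 bp. The 5′ end of the noncoding gene Gm35880 also lay within 1 kb of these regions.

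Among the Sin3A-binding factors, Klf13 had the strongest and widest 5′ region of the 9, at chr7:63938827-63939724. Its fold was 12.87 and its −log10 q-value 142, with 85.8% of protein-coding 5′ regions lower in fold and 96.4% narrower than its 898 bp. It held 6 summits, of which those 211 bp (12.87) and 347 bp (7.41) upstream stood well above the other 4, which were between 2.07 and 3.41. Klf9 had a region at chr19:23140638-23141301 with a fold of 6.94 and summits of similar height 97 bp (6.94) and 460 bp (6.24) upstream. Klf10, a gene induced by TGF-β, had a region at chr15:38300610-38301250 with a fold of 6.09 and 3 upstream summits at 377, 113 and 6 bp. The regions of Klf9 and Klf10 were both below the median fold of protein-coding 5′ regions.

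Klf15, which acts in metabolic control, had its only region inside the gene, at chr6:90477164-90477592, 16.3 kb downstream of the 5′ end and with a fold of 6.48. The promoter table places its start 1533 bp inside the outermost 5′ end, and no region lay within 1 kb of that start either. At the unknown depth of the list, the lack of a region says that none was called, not that the promoter was closed.

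Within the gene bodies, more than 1 kb from the gene's own 5′ end, 9 regions lay in 6 of the 10 genes, where 25.6% of all protein-coding genes had such a region. That share was not matched for gene length, which ran from 2.59 kb for Klf2 to 92.9 kb for Klf7. Klf13 held 3 of the 9 regions, Klf6 held 2 and Klf3, Klf7, Klf10 and Klf15 held 1 each. Those in Klf13 lay from 13.7 to 51.4 kb into the gene of 52.6 kb. The strongest, chr7:63896875-63897474, was 41.7 kb downstream of the 5′ end with a fold of 10.39, and the broadest, chr7:63924666-63925793, was 1128 bp wide with 5 summits and a fold of 7.43. The remaining one, the farthest from the 5′ end, had a fold of 4.11. All 3 were nearer to the 5′ end of the neighbouring gene E030018B13Rik than to that of Klf13, and the region in Klf3 (chr5:64825591-64825797, fold 6.38) was nearer to that of Gm38457, so these 4 were not counted as distal regions of the Klf genes. The regions in Klf6 lay 2.9 kb (chr13:5864226-5864548, fold 5.59) and 8.56 kb (chr13:5869942-5870164, fold 4.67) downstream of its 5′ end. Klf7 held chr1:64118751-64119152 at 3.39 kb with a fold of 6.91, and Klf10 held chr15:38298880-38299565 at 1.49 kb with a fold of 5.39. The gene table gives gene spans only, so whether a region was exonic or intronic was not resolved.

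Distal regions, with a midpoint more than 1 kb away from the 5′ ends of all protein-coding genes, were assigned to the gene whose 5′ end was closest. They were found for all 10 genes, where 40.3% of all protein-coding genes had one. There were 100 in total, with a median of 7 per gene against 0 over all protein-coding genes (mean 1.11, upper quartile 1). Klf6 had 34 and Klf5 had 22, so these genes accounted for 56 of the 100. Klf4 followed with 12, Klf7 and Klf10 with 8 each, Klf3 and Klf9 with 6 each, Klf13 with 2, and Klf2 and Klf15 with 1 each. No protein-coding gene had more than Klf6, and the nearest to it were Tbl1xr1 and Myc with 31 each. The assignment depends on which 5′ ends compete. With noncoding genes included, only 10 of the 100 had a Klf gene nearest, 5 of them Klf6 and 2 Klf5, and Klf3, Klf4, Klf7, Klf9 and Klf13 had none. With only the regions at or below the median q-value, 55 were left, and Klf2, Klf13 and Klf15 had none.

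**Figure D2:**
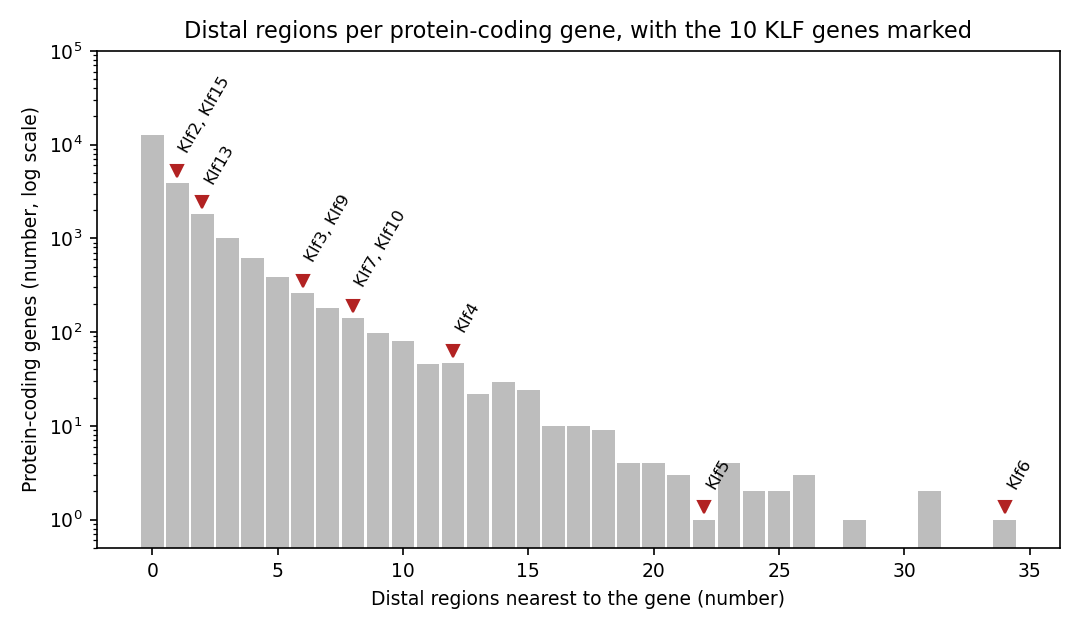
Number of protein-coding genes (y axis, log scale) by the number of distal regions nearest to their 5′ end (x axis), with the Krüppel-like factor genes marked. Klf6 with 34 and Klf5 with 22 sit at the far right, while Klf2 and Klf15 with 1 and Klf13 with 2 sit among the bulk of genes.

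The Klf genes had long stretches of sequence nearest to their 5′ ends, with a median of 331 kb against 50.4 kb, which gives more room for distal regions. Per length, the 10 genes together had 2.57 distal regions per 100 kb against 0.895 over all protein-coding genes. Klf10 had the highest density, 5.33 per 100 kb in a stretch of 150 kb, followed by Klf5 with 3.71 in 593 kb and Klf6 with 3.51 in 969 kb. Klf9 (1.06) and Klf2 (1.1) had the lowest, above 0.895, which pools stretches of all lengths. Among genes with a stretch from 0.5 to 2 times as long, 0 of 1015 had more distal regions than Klf6, 8 of 1823 more than Klf5, 86 of 1522 more than Klf4 and 121 of 5867 more than Klf10. The number was 263 of 2759 for Klf7, 438 of 3589 for Klf3, 366 of 1895 for Klf9, 1481 of 7316 for Klf13, 1974 of 9277 for Klf15 and 2356 of 8027 for Klf2. The 10 genes thus ranged from Klf6, which no gene with a stretch of its size exceeded, to Klf2. The 1 distal region of Klf2 equalled the median of its 8027 genes, of which 49.6% had fewer.

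The distal regions of the Klf genes lay far from them. Their median distance was 155 kb against 36.3 kb for all 23756 distal regions, and 62% lay beyond 100 kb against 24%. In height they were close to the rest, with a median fold of 7.15 against 6.87 and a range from 3.31 to 18.02, and a median width of 403 bp against 388 bp. An IDR score of 1000 was given to 52% of them against 40.9%. Upstream of the genes lay 54 and downstream 46. How many can lie on each side, and how far away, is set by the distance to the neighbouring 5′ ends. Of the 100, 69 lay in no gene, 22 in noncoding genes, 5 in the Klf gene itself and 4 in another protein-coding gene. In 6 of the 9 genes with a 5′ region at least 1 distal region had a higher fold than the 5′ region, against 52% of the 3819 protein-coding genes with both kinds. A gene with more distal regions has more that can exceed its 5′ region, and the shares were not matched for their number.

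**Figure D3:**
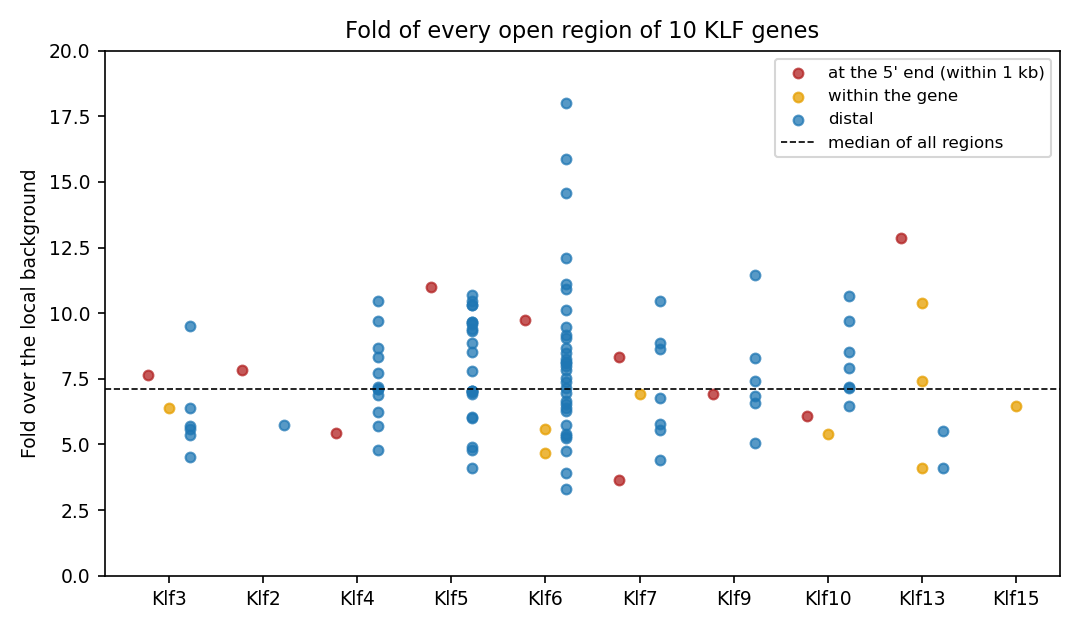
Fold over the local background (y axis) of every region of each Krüppel-like factor gene, by kind of region, with a dashed line at 7.11, the median of all regions. Klf6 holds the highest point at 18.02, and nearly all distal regions of Klf4 lie above its 5′ region at 5.42.

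The 34 regions of Klf6 lay between Akr1e1 and Pitrm1, 20 upstream and 14 downstream, from 613 kb before to 333 kb after the 5′ end. Their fold had a median of 7.69, and 17 had an IDR score of 1000. The strongest of all, chr13:5892731-5893332, was 31.5 kb downstream with a fold of 18.02, higher than 99.2% of all regions in the list. It was followed by chr13:5302208-5302807, 559 kb upstream with a fold of 15.89, by chr13:5837318-5837761, 23.9 kb upstream with 14.59, and by chr13:5886856-5887193, 25.5 kb downstream with 12.10. The farthest upstream, chr13:5248616-5249053 at 613 kb, had a fold of 11.12. Altogether 7 of the 34 exceeded the fold of the 5′ region, and of the 4 strongest 3 lay at most 31.5 kb from the 5′ end.

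Klf5 had most of its stretch on 1 side, 494 kb downstream and 99.5 kb upstream, against 626 kb upstream and 343 kb downstream for Klf6. Of its 22 regions 21 lay downstream, from 26 to 396 kb after the 5′ end and toward its relative Klf12, and 1 lay 57.5 kb upstream, within Pibf1. The 5′ ends of Klf5 and Klf12 are 987 kb apart, and of the 23 regions between them 21 were nearest to Klf5 and 2 to Klf12. The noncoding gene Gm34061 spanned 9 of the 22. Their median fold was 8.17 and 15 had an IDR score of 1000, but none exceeded the 5′ region of Klf5 at 10.99. The highest was chr14:99624383-99625238, 326 kb downstream, with a fold of 10.69 and 5 summits. The farthest, chr14:99694305-99694810, 396 kb downstream, was nearly as high at 10.30.

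Klf4 had the reverse relation between near and far regions. Of its 12 distal regions, 7 upstream and 5 downstream between Rad23b and Actl7b, 11 had a higher fold than its 5′ region, with a median of 7.16. The strongest, chr4:55732043-55732468, lay 200 kb upstream with a fold of 10.47, and the next, chr4:56113519-56114247, lay 581 kb upstream with 9.69. Downstream, the strongest was chr4:55443429-55443930 at 88.8 kb with 8.67. The high regions of Klf4 were thus scattered on both sides of the gene. Klf7 had 5 upstream and 3 downstream, with a median of 6.84, and the strongest, chr1:64305314-64305893, lay 183 kb upstream with 10.47. Those next in fold, chr1:64209071-64209581 (8.85) and chr1:64226040-64226469 (8.65), lay 87 and 104 kb upstream, so that all 3 with a fold above its 5′ region were upstream. In Klf2 the single distal region, chr8:72310900-72311256, lay 7.98 kb upstream with a fold of 5.73, within a stretch of 90.8 kb between Ap1m1 and Eps15l1.

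In Klf3 the 6 distal regions lay 59.2 to 267 kb upstream, the side that made up nearly all of its stretch, with 278 kb upstream and 2.83 kb downstream. They were low, with a median fold of 5.64, except the farthest, chr5:64536626-64537170, at 9.50.

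The 8 regions of Klf10 comprised 7 upstream, 23.4 to 109 kb away, and the 1 in the gene. Of these 7 exceeded the 5′ region, and the strongest, chr15:38406080-38406432, lay 106 kb upstream with a fold of 10.66. It was followed by chr15:38391387-38391802, 90.9 kb upstream with 9.72, while the closest upstream region, chr15:38323977-38324231, was 23.4 kb away with 7.92. Klf9 had 6, of which 3 lay 224 to 225 kb upstream within Trpm3, the strongest being chr19:22917047-22917432 with a fold of 11.44. Another pair lay close to Klf9, at chr19:23133905-23134359 (7.09 kb upstream, fold 6.83) and chr19:23135399-23136155 (5.45 kb upstream, fold 8.28). The sixth, chr19:23169362-23169663, lay 28.3 kb downstream with a fold of 5.07. Klf13, with the highest 5′ fold, had only 2 distal regions, both low, at chr7:63957046-63957426 (18.3 kb upstream, fold 5.52) and chr7:64011756-64012201 (73.1 kb upstream, fold 4.09). Its stretch of 107 kb held only 11 kb downstream, so the 3 regions within the gene, with folds up to 10.39, lay beyond it and were not counted.

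**Figure D4:**
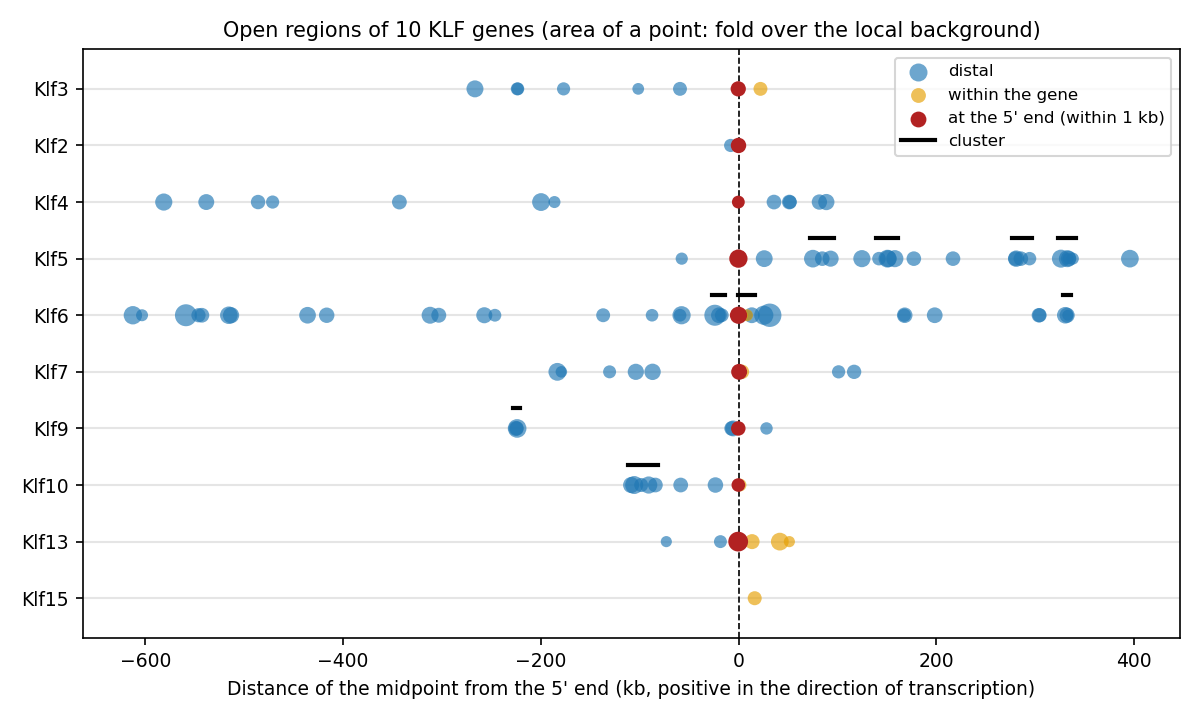
Map of the regions of each Krüppel-like factor gene, by distance in kb from the 5′ end (x axis, upstream negative, along the strand of the gene). The area of a point stands for its fold, and black bars mark clusters. Klf6 is flanked on both sides, Klf5 has 21 of its 22 distal regions downstream, where 494 kb of its stretch lie, and the 6 of Klf3 are upstream, where 278 kb of its stretch lie against 2.83 kb downstream.

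Clusters, runs of at least 3 distal regions of 1 gene with gaps of at most 10 kb between neighbouring midpoints, were found for 4 of the 10 genes, where 4.81% of all protein-coding genes had one. There were 9, with 4 at Klf5, 3 at Klf6 and 1 each at Klf9 and Klf10, and they held 34% of the distal regions of the Klf genes against 17% of all distal regions. Only a gene with at least 3 distal regions can have a cluster, and the median was 7 per Klf gene against 0 per protein-coding gene. These shares were not matched for the number of distal regions. Klf4 had 12 distal regions but no cluster, and gained one with gaps of up to 20 kb. Klf10 had none with gaps of at most 5 kb, nor among the regions at or below the median q-value.

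The clusters of Klf5 were all downstream. The first, chr14:99373750-99392118, held 3 regions and had its strongest, with a fold of 10.30, at 75.2 kb. The second, chr14:99440529-99457091, held 4 with the strongest, 10.45, at 151 kb. The third, chr14:99578575-99593418, held 4 with the strongest, 8.88, at 281 kb. The fourth, chr14:99624383-99636954, held 5 and the highest fold of Klf5's distal regions, 10.69.

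At Klf6, the cluster chr13:5837318-5844742 held 3 regions 17 to 23.9 kb upstream, with folds up to 14.59. A second, chr13:5864226-5875075, held 4 from inside the gene to 13.4 kb downstream, with folds from 3.31 to 8.25. The last, chr13:6191692-6194644, held 3 within 2.95 kb, 331 kb downstream, with folds up to 9.06. The single region with the highest fold, 18.02, belonged to no cluster.

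The cluster of Klf10, chr15:38384624-38409565, held 5 of its 8 distal regions over 24.9 kb and included the strongest of them. That of Klf9, chr19:22915871-22917432, was the most compact, with 3 regions in 1.56 kb, all 3 with an IDR score of 1000.

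Of the other 7 genes of the Krüppel-like family, 3 had a region at the 5′ end: Klf11 with a fold of 7.61, Klf12 with 6.97 and Klf16 with 5.64. Klf1, the erythroid member, Klf8, Klf14 and Klf17 had none. Together these 7 had 15 distal regions, with a median of 1, and 10 of the 15 were nearest to Klf14, which also held their only cluster. At the 5′ end, 9 of the 10 genes described here and 3 of these 7 thus had a region. The share was 38.3% of protein-coding genes. Counted by annotated promoter start, it was 30.9% of all promoters and 65.5% of those with at least 13 CpG. No test was made of the difference.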

How the data were processed

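Bulk ATAC-seq was performed on 4 samples of non-irradiated organoids (75 bp paired-end reads), which the authors processed with the ENCODE ATAC-seq pipeline into a consensus peak list. The deposited list, taken to be that consensus, gives an IDR score for each region and, for each summit, a fold (ratio over the local background) and a −log10 q-value from the authors' peak caller. Its number of regions differs from the number of peaks the study gives for its consensus, so this reading is uncertain. Pipeline version and filters are not given in the sources used here. The submitters' processing notes name GRCm39 and HOMER, but 38.3% of GRCm38 protein-coding 5′ ends had a region against 5.03% of those of GRCm39, so the list was read as GRCm38. Coordinates are 1-based. Depth per sample is unknown.

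Lines (69545) with the same start and end were joined into 32011 distinct regions that carry the values of the strongest summit (lowest q-value). Gene spans came from a RefSeq table of GRCm38.p6, with strand from a RefSeq promoter table (17492 protein-coding genes) or by name from GENCODE (3948), which left 21440 of 21887 protein-coding genes. Of 22110 genes in both sources, 125 had different strands. Regions before the first or after the last 5′ end on a chromosome were not assigned. Counts were made with Python 3.11.15, numpy 2.4.6, pandas 2.3.3 and matplotlib 3.10.9, and the counting steps were tested on simulated data. The first 250 bases of each promoter sequence, before the start, were searched for motifs. All 10 genes are named, with the strongest region of each kind. The genes, lists and alternatives were chosen with earlier results of these data known.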

Additional observations from a re-analysis of the deposited data

How the results depend on the processing

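The number of Klf genes with a 5′ region was 9 under all alternatives for the distance, the overlap and the strand. With only the regions at or below the median q-value it was 8, without Klf4. The share of all protein-coding genes with a 5′ region, 38.3% in the main setting, also moved with these alternatives. It was higher for a distance of 2 kb, for any base within 1 kb and for either end of the gene. It was lower for a distance of 500 bp, and lowest for the stricter set of regions at or below the median q-value. Under that stricter set, regions within the genes fell from 9 to 5, distal regions from 100 to 55 and clusters from 9 to 5 (none at Klf10), by construction from fewer regions. Counting lines in place of distinct regions gave 24 within the genes. Distal regions nearest to a Klf gene numbered 10 when noncoding 5′ ends also competed, and clusters numbered 6 with gaps of at most 5 kb (at Klf5, Klf6 and Klf9) and 10 with gaps of at most 20 kb (Klf4 added). Start sites from the promoter table and strand from the annotation alone were alternatives chosen after seeing the data, and both left the number of genes with a 5′ region at 9. No paired analysis was possible because the list holds no values per sample. For the same reason no sample could be left out. Depth is unknown, so a region that was not called may still be open.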

Other observations

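The SP genes, which encode the zinc finger factors most closely related to the Krüppel-like family and bind the GC box, had a region at the 5′ end in 3 of 9 cases. These were Sp1 with a fold of 8.61, Sp3 with 8.52 and Sp4 with 10.34, so that 6 of the 16 other KLF and SP genes had one, close to the 38.3% of all protein-coding genes. The 9 SP genes together had 15 distal regions, of which Sp3 had 7, Sp8 had 3 and Sp7, a factor of bone formation, had 2. They held 1 cluster, at Sp3, and 3 of the 9 had no distal region.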
